A study of Mus musculus with 6 samples.

Results

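The genes described here are 48 cytokine ligands, cytokine receptor chains, Janus kinases (JAKs), signal transducers and activators of transcription (STATs) and suppressors of cytokine signaling (SOCS), measured by RNA sequencing in unstimulated bone marrow-derived macrophages (BMDMs). They were taken from the deposited count table by gene symbol, and all 48 were found among its 40481 genes. They comprise 6 ligands, 23 receptor chains, 4 JAKs, 6 STATs, 8 SOCS family genes including Cish, and the STAT-induced kinase Pim1. BMDMs are marrow cells of the tibia and femur that mature into macrophages in culture, here over 5 to 6 days in medium with 10% CMG-conditioned medium, followed by medium with 2%. The 2 groups had 3 libraries each. The wild-type group is labelled only as wild type, and the labels do not say whether these mice carried floxed Scd2 alleles or Cre. The Scd2-m/-m group came from mice in which floxed Scd2, a stearoyl-CoA desaturase gene, was deleted by Cre expressed from the lysozyme M locus, which is active in myeloid cells. Mice of both sexes, 2 to 5 months old, were used in the study, and the age of each library's donor is not given. Nothing in the labels says that replicates came from separate animals, so the p-values measure only the spread between these samples.

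Cytokines of these families bind pairs of receptor chains on the cell surface, and with a few exceptions each chain carries a JAK. The paired JAKs phosphorylate each other and the receptor, STAT factors dock there, become phosphorylated, and move to the nucleus to induce their target genes. Among these targets are the SOCS genes and Cish, whose products bind receptors or JAKs and dampen the same signal. In macrophages the type I interferon receptor leads to STAT2, the IL-10 and gp130 receptors to STAT3, the IL-4 and IL-13 receptors to STAT6, and the IL-3 receptor to STAT5.

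Between 46285176 and 57629638 counts fell on genes in each library. These totals exceed the average number of reads per sample that the study gives, so counts may be doubled, and the depth in fragments may be lower than they show. Levels are given below as CPM, counts scaled to a common library size after applying the TMM factors of edgeR. Levels of different genes are compared as TPM, which divides by exonic length before scaling each library to the same total. Scd2 itself had 66.9, 77.8 and 62.7 CPM in wild type against 59.5, 37.96 and 39.8 CPM in Scd2-m/-m, so the groups did not overlap, with a log2 fold change of -0.59 (SE 0.19) and a false discovery rate (FDR) of 0.1002 in the quasi-likelihood test of edgeR, adjusted after Benjamini and Hochberg. That count covers all exons of Scd2 and not only the floxed part. Its Scd2-m/-m mean was 66.2% of wild type, while quantitative PCR in the study found a deeper loss of Scd2 transcript. The reason for this difference was not tested. Of 15 macrophage markers, 8 were lower and 1 higher, and their summed level without Lyz2, whose locus carries the Cre, ran from 26144 to 27069 CPM in wild type and from 22997 to 23807 CPM in Scd2-m/-m. All 20 cell division genes were higher, with sums of 72.0 to 82.3 CPM against 215 to 249.6 CPM. Of 15 tested monocyte and progenitor markers 7 were higher and 1 lower, with sums of 149 to 169.5 CPM against 202 to 268 CPM. Among all genes tested, 9.65% were called higher and 7.84% lower. Fewer cells of a type and less RNA per cell cannot be told apart in these bulk samples, and the part of cell composition or cell division in the results below was not tested. Xist was present in all 6 libraries, at 658 to 842 CPM, and the Y-linked Ddx3y, Kdm5d and Eif2s3y had 0 counts in all 6, while the Y-linked Uty had 6, 0 and 5 counts in wild-type replicates 1 to 3 and 0 in each Scd2-m/-m library.

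Of the 48 genes, 45 passed the filter on low counts, and 16 of them were called at an FDR below 0.05, 7 higher and 9 lower in Scd2-m/-m macrophages. This is 35.6% of the 45, against 17.5% of all 14778 genes tested. By direction, the background was 9.65% of tested genes higher and 7.84% lower. Among genes with a mean above 10 CPM, 15 of 33 tested members were called (45.5%), against 21.4% of all genes above that level. The changes were small. Lifr alone among the 45 had an absolute log2 fold change above 1, 5 had one above 0.5, and none passed the stricter limit of 2, which 0.663% of tested genes passed together with the FDR. The median log2 fold change over the 45 members was -0.024, against 0.0039 over all tested genes. In 24 of the 45 (53.3%) the 3 libraries of one genotype all lay outside the range of the other, 12 in each direction, where the background was 34.9% of tested genes, 17.9% higher and 17.0% lower. Receptor chains held most of the lower calls: of 22 tested chains 7 were lower and 3 higher. Among the 19 tested signaling and feedback genes downstream of them, 4 were higher and 2 lower.

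**Figure D1:**
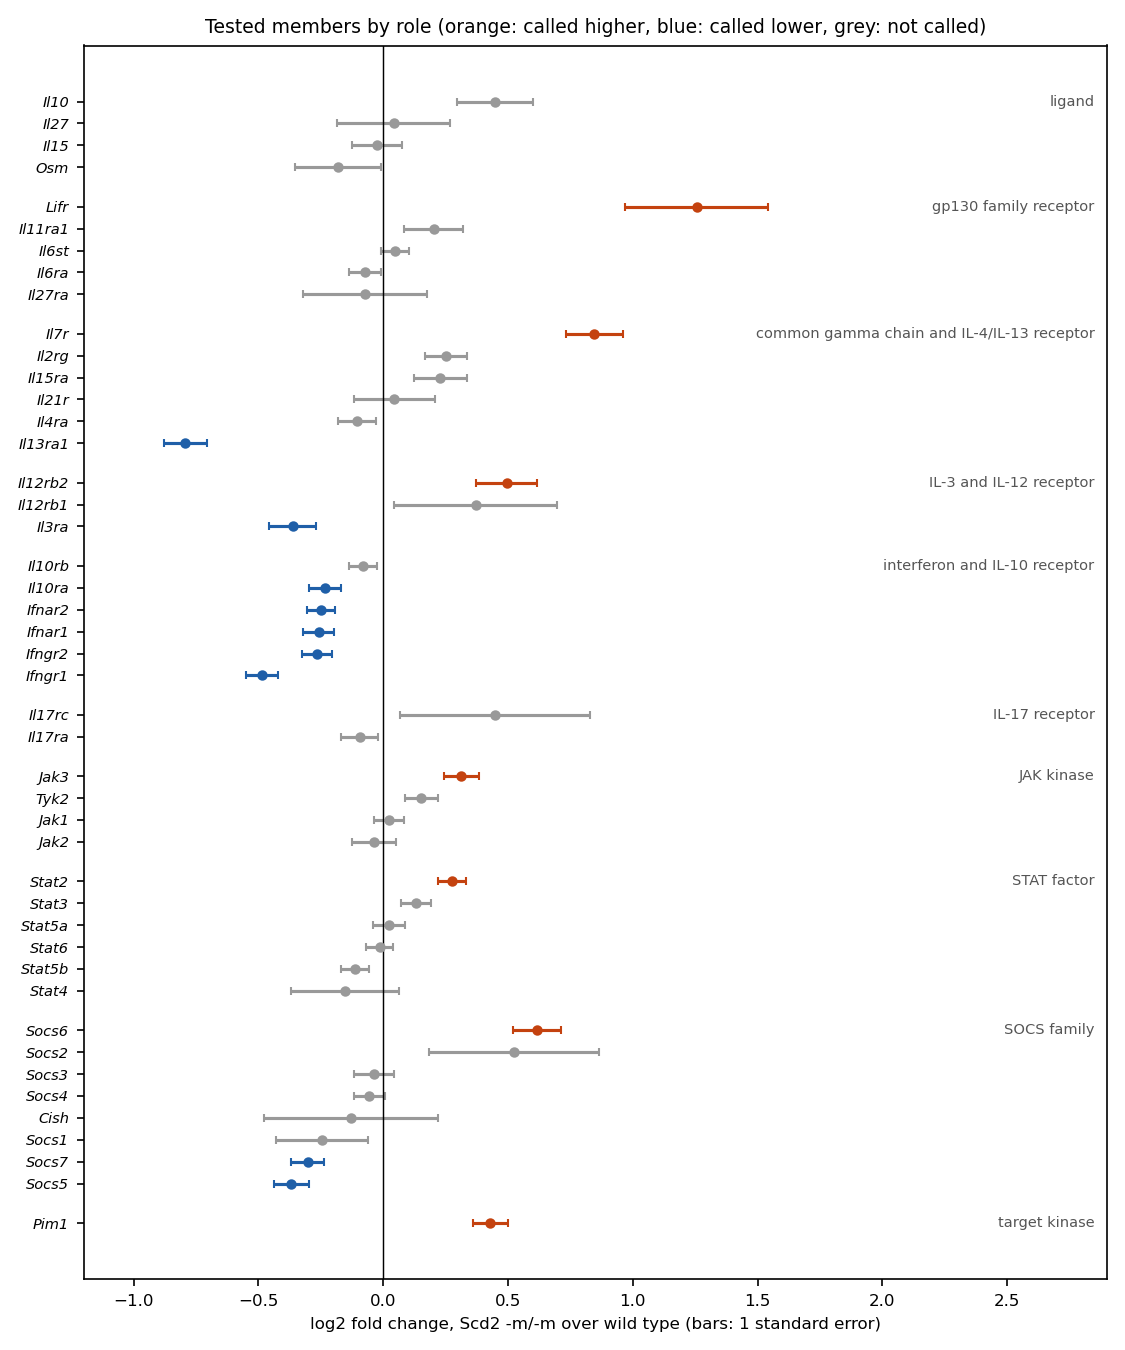
Log2 fold change of each of the 45 tested genes, Scd2-m/-m over wild type (horizontal axis, bars 1 standard error), grouped by role and sorted within each role; orange points were called higher, blue points lower and grey points not called at an FDR below 0.05. All 6 interferon and IL-10 receptor chains lie left of 0, Lifr and Il7r lie farthest right, and Il13ra1 lies farthest left.

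The receptors for interferon gamma, for type I interferons and for IL-10 were lower in Scd2-m/-m macrophages in 5 of their 6 chains, and all 6 chains were without overlap between the genotypes. Their median log2 fold change was -0.25. Over all tested genes 7.84% were called lower, and 17.0% were lower without overlap. The count of calls among these 6 chains was added after seeing the data. Ifngr1, the chain that binds interferon gamma, had 388, 402 and 394 CPM in wild-type replicates 1 to 3 and 273, 267 and 305 CPM in those of Scd2-m/-m. Every Scd2-m/-m library lay below every wild-type library, the mean fell to 71.3% of wild type (395 ± 6.84 against 282 ± 20.2 CPM, SD, n = 3), and the log2 fold change was -0.49 (SE 0.064, FDR = 1.45e-04, edgeR quasi-likelihood test). Ifngr2, its partner chain, had 278, 259 and 253 CPM in the wild-type libraries and 228, 213 and 217 CPM in the Scd2-m/-m libraries. Again the groups were apart, with a smaller log2 fold change of -0.26 (SE 0.060, FDR = 0.00772). The type I interferon receptor, which binds interferons alpha and beta, is built from Ifnar1 and Ifnar2. For Ifnar1 the levels were 212, 204 and 191 CPM in wild type against 164, 166 and 177 CPM in Scd2-m/-m. Its log2 fold change was -0.26 (SE 0.061, FDR = 0.00952). Ifnar2 gave 136, 130.1 and 129 CPM in wild-type replicates 1 to 3 and 113, 109 and 111 CPM in those of Scd2-m/-m. The groups of both chains were without overlap, and the fold change of Ifnar2, -0.25 on the log2 scale (SE 0.056, FDR = 0.00696), was within 1 SE of that of Ifnar1. Il10ra, the chain that binds IL-10, had 266, 299 and 307 CPM in the wild-type libraries and 247, 247 and 247 CPM in the Scd2-m/-m libraries. Its wild-type libraries spread over 40.8 CPM while its Scd2-m/-m libraries lay within 0.490 CPM of each other, all below wild type, with a log2 fold change of -0.23 (SE 0.064, FDR = 0.0213). Il10rb, the signaling chain that IL-10 shares with IL-22 and interferon lambda, had 150.4, 151 and 149.7 CPM in wild type against 140.3, 137 and 149 CPM in Scd2-m/-m. These groups just failed to overlap, and the difference was not called (log2 fold change -0.080, SE 0.056, FDR = 0.371). The calls depended on single libraries: 5 of the 6 chains were called with all libraries, 3 without wild-type replicate 2, 4 without wild-type replicate 3, and only Ifngr1 without Scd2-m/-m replicate 2. In all 6 chains the log2 fold change stayed negative with each library left out. The summed macrophage markers, given above, were lower in every Scd2-m/-m library too, and their part in the lower receptor levels was not tested.

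**Figure D2:**
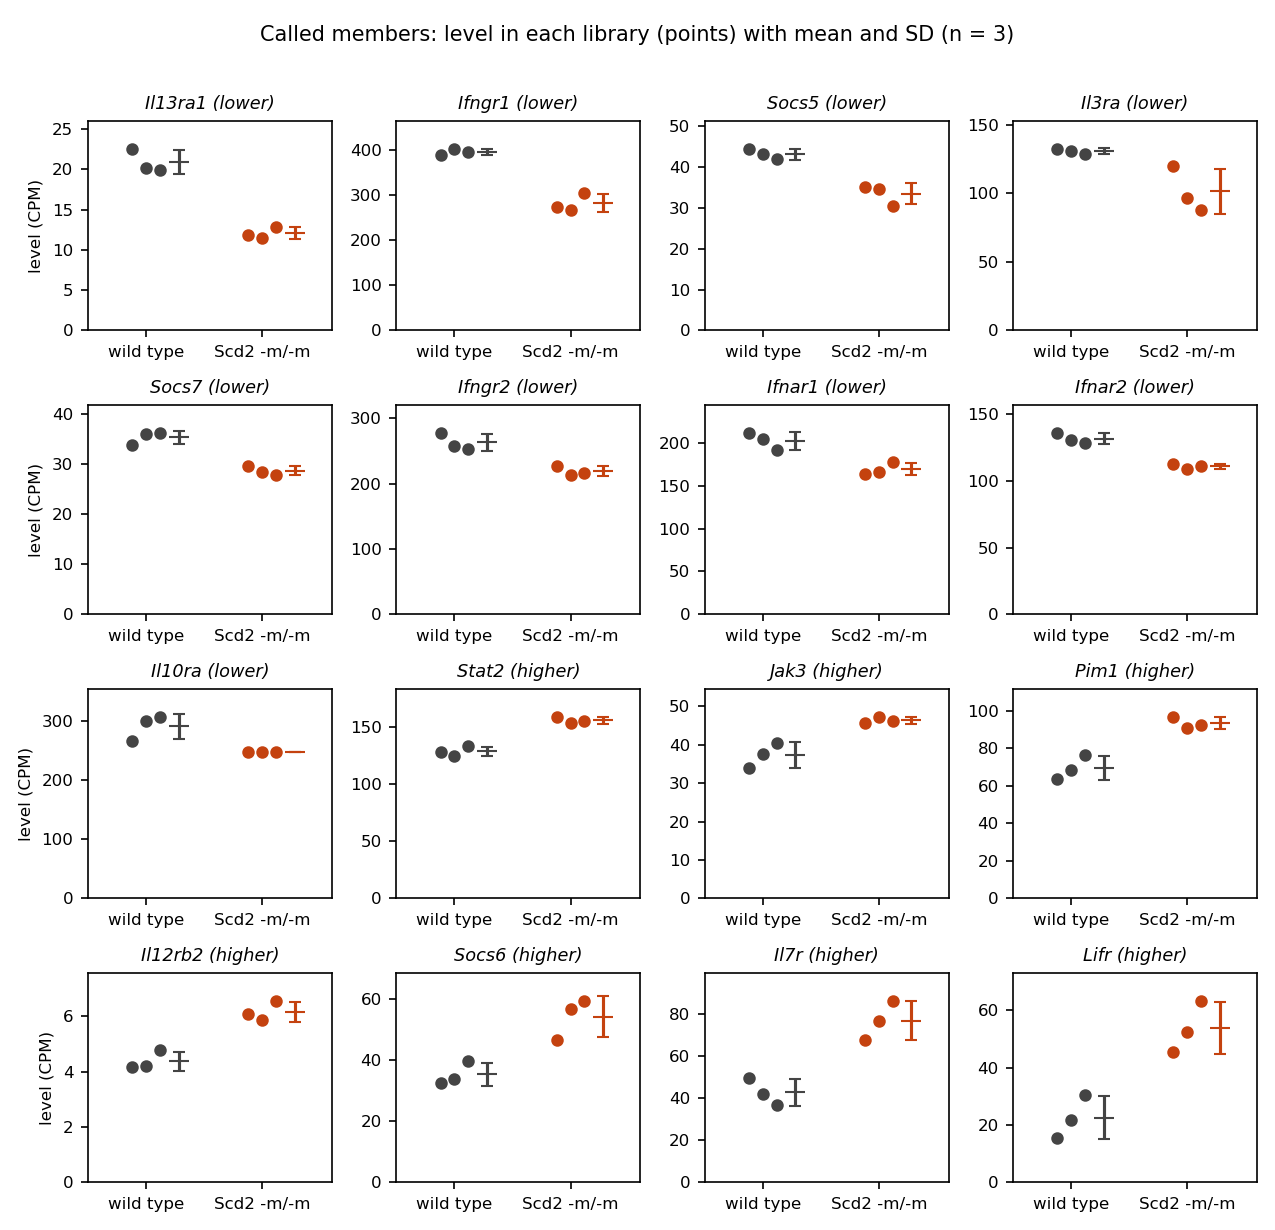
Level of each of the 16 called genes in every library (CPM after TMM scaling, vertical axes from 0), with wild-type libraries in black, Scd2-m/-m libraries in orange, and the mean and SD (n = 3) beside the points. In all 16 panels the 3 points of one genotype lie outside the range of the other, with 9 genes lower and 7 higher in Scd2-m/-m.

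Ifnar2, Il10rb, Ifnar1 and Ifngr2 lie in this order within 192.84 kb on the forward strand of chromosome 16 (GRCm38), from chr16:91372783-91405589 for Ifnar2 to chr16:91547072-91565623 for Ifngr2. Ifngr1 lies on chromosome 10 and Il10ra on chromosome 9. Of the 10 other tested genes within 200 kb of this cluster 9 were not called and 1, Gart, a purine synthesis gene, was lower (27.6 CPM on average in wild type against 18.7 CPM in Scd2-m/-m, log2 fold change -0.56, FDR = 1.33e-04, edgeR quasi-likelihood test). Like Gart, the uncalled Tmem50b (-0.18, FDR = 0.0848), Son (-0.12, FDR = 0.204) and Donson (-0.28, FDR = 0.0821) were lower without overlap between the genotypes. Cryzl1 (0.13, FDR = 0.292) was higher without overlap. Of all tested genes 7.84% were called lower, and 34.9% did not overlap between the genotypes. The median log2 fold change of the 10 genes was 0.0054. It takes in A930006K02Rik, Gm7860, Gm15964 and Gm10785, which averaged only 0.205 to 1.05 CPM in wild type. Some exonic bases of Ifnar2 (9.46%) and Il10rb (14.9%) are shared on the same strand with the predicted gene Gm21970, which had 0 counts in every library. How the deposited counts treat such shared bases is not stated in the labels or the methods.

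**Figure D3:**
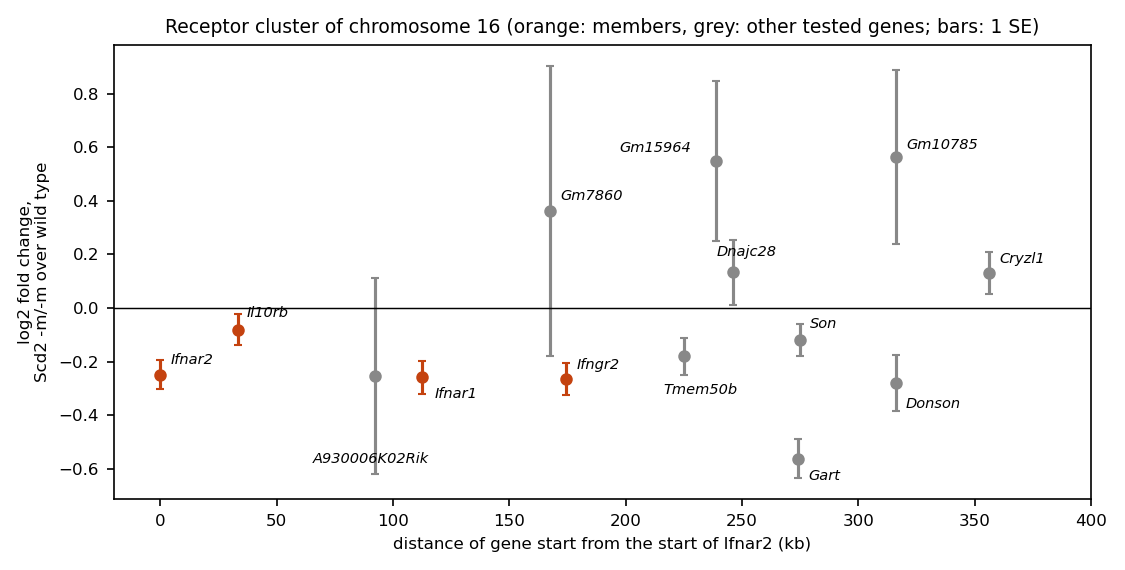
Log2 fold change (Scd2-m/-m over wild type, bars 1 standard error) of the tested genes around the receptor cluster of chromosome 16, by the distance of each gene's start from that of Ifnar2 in kb; orange points are Ifnar2, Il10rb, Ifnar1 and Ifngr2, and grey points are the 10 other genes. The 4 receptor chains lie below 0, as do Gart, Tmem50b, Son, Donson and A930006K02Rik among the other genes. A930006K02Rik averaged only 0.521 CPM in wild type. The other genes lie on both sides of 0, Gart being the lowest. Gm7860, Gm15964 and Gm10785, which lie above 0, averaged only 0.205 to 1.05 CPM in wild type.

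Promoter windows of the 250 bases before the RefSeq start (GRCm38.p6) were available for 35 of the 48 genes and were searched on both strands for the letters TTCNNNGAA, the palindrome that STAT dimers bind, and TTTCNNTTTC, the direct repeat of interferon response elements. The first was in 4 of the 35 (Ifnar2, Il12rb2, Il7r and Socs3), or 11.4%, against 8.13% of 27018 genes. The second was in 3 (Socs1, Stat2 and Stat4), or 8.57%, against 3.46%. No window held both. A match of letters describes the sequence only. The windows of the called genes Ifnar2, Il12rb2 and Stat2 are shown because they hold a match outside any annotated transcript of the gene, written 5′ to 3′ on the gene's strand with the match in capitals, at 214, 123 and 222 bases before the start. They come from chr16:91372533-91372782 (forward strand), chr6:67376189-67376438 (reverse strand) and chr10:128270248-128270497 (forward strand). The bases after the RefSeq start of Stat2 were not found in an annotated transcript of the gene. Its annotated start is at chr10:128270559, so the distance given for Stat2 holds for the RefSeq start alone.
Ifnar2: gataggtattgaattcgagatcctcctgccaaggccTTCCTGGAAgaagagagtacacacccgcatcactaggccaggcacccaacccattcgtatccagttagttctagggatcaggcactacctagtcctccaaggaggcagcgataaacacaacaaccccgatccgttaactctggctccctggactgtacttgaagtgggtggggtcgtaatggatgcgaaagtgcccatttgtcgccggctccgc
Il12rb2: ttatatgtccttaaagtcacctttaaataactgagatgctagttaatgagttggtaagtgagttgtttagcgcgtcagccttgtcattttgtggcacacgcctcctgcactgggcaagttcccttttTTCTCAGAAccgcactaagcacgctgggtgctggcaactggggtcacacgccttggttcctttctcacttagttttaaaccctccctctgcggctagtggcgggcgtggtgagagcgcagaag
Stat2: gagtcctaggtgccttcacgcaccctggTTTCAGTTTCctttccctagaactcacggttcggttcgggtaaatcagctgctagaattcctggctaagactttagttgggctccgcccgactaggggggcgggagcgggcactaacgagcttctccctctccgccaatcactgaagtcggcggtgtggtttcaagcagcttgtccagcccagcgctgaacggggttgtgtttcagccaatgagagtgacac
Ifnar2 was lower in Scd2-m/-m macrophages, while Il12rb2 and Stat2 were higher.

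Among the 6 receptor chains for IL-4, IL-13 and the cytokines of the common gamma chain, Il7r rose and Il13ra1 fell. Il13ra1, which pairs with Il4ra to form the receptor shared by IL-4 and IL-13, had 22.6, 20.2 and 19.95 CPM in wild-type replicates 1 to 3 and 11.9, 11.4 and 12.9 CPM in those of Scd2-m/-m. Its groups were far apart, and it had the largest fall of all members, to 57.7% of wild type (log2 fold change -0.79, SE 0.084, FDR = 2.42e-05, edgeR quasi-likelihood test). This call held in every alternative with an FDR limit alone. Il4ra, which binds IL-4, gave 119, 132 and 149 CPM in the wild-type libraries and 118, 123 and 130.3 CPM in the Scd2-m/-m libraries. These groups overlapped and no difference was called (log2 fold change -0.11, SE 0.078, FDR = 0.396). The ratio of Il4ra to Il13ra1 in TPM was 3.25, 4.03 and 4.62 in wild-type and 6.13, 6.68 and 6.24 in Scd2-m/-m libraries. Il7r, the alpha chain of the IL-7 receptor that also serves thymic stromal lymphopoietin (TSLP), had 49.6, 42.2 and 37.01 CPM in wild type against 68.00, 76.8 and 86.6 CPM in Scd2-m/-m. All Scd2-m/-m libraries were above wild type, at 179.6% of its mean (log2 fold change 0.84, SE 0.11, FDR = 7.82e-04). Crlf2, the chain that pairs with Il7r in the TSLP receptor, was lower (120.4 ± 4.47 against 87.8 ± 8.61 CPM, log2 fold change -0.46, FDR = 5.58e-04). Il2rg, the common gamma chain itself, gave 139, 121 and 136 CPM in wild-type replicates 1 to 3 and 174, 137 and 159.8 CPM in those of Scd2-m/-m. One Scd2-m/-m library fell within the wild-type range, and the log2 fold change of 0.25 (SE 0.085) missed the limit with an FDR of 0.0579. It was called in 5 of the alternatives, among them DESeq2. Il15ra, which presents IL-15 to neighboring cells, had 6.16, 5.94 and 6.39 CPM in the wild-type libraries and 7.17, 6.84 and 7.67 CPM in the Scd2-m/-m libraries, without overlap and without a call (log2 fold change 0.23, FDR = 0.168). Il21r gave 40.8, 51.97 and 65.4 CPM in wild type against 50.8, 55.1 and 57.3 CPM in Scd2-m/-m, with the Scd2-m/-m libraries inside the wild-type range (log2 fold change 0.045, FDR = 0.890). Of Il2rg, 30.5% of the exonic length is shared with the predicted gene Gm20489, which had almost no counts. Il2rg and Il13ra1 are the X-linked members.

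In the gp130 family, whose members signal through Il6st, 1 of 5 tested chains was called. With 17.5% of all tested genes called, 1 call among 5 does not set this family apart. Lifr, the receptor chain for leukemia inhibitory factor (LIF), had 15.4, 21.8 and 30.3 CPM in wild-type replicates 1 to 3 and 45.4, 52.5 and 63.3 CPM in those of Scd2-m/-m. The groups did not overlap, and its mean rose 2.39-fold, the largest fold among the members (log2 fold change 1.26, SE 0.29), but its SE was also the largest of the members above 10 CPM, and the FDR was 0.0472 in the edgeR quasi-likelihood test. The call was lost without wild-type replicate 2, without any one of the 3 Scd2-m/-m libraries, and with no filter on low counts, while the log2 fold change stayed between 1.04 and 1.53 with each library left out. Il6st, the shared signal-transducing chain gp130, had 202, 212 and 214 CPM in the wild-type libraries and 218, 210.4 and 221 CPM in the Scd2-m/-m libraries. The groups overlapped (log2 fold change 0.047, SE 0.057, FDR = 0.623). The TPM ratio of Lifr to Il6st was 0.110 ± 0.034 in wild type against 0.256 ± 0.040 in Scd2-m/-m (SD, n = 3). Il6ra, the chain that binds IL-6, gave 169, 183 and 189 CPM in wild type against 168, 166 and 182 CPM in Scd2-m/-m. It overlapped between genotypes (log2 fold change -0.072, FDR = 0.485). Il11ra1 had 12.97, 15.6 and 16.5 CPM in wild-type replicates 1 to 3 and 17.2, 20.03 and 14.7 CPM in those of Scd2-m/-m. Its highest value was in a Scd2-m/-m library and its groups overlapped (log2 fold change 0.20, FDR = 0.272), and its reads are uncertain because the near-identical copy Il11ra2 could share them. Il27ra, which senses IL-27, lay between 0.836 and 1.43 CPM over all 6 libraries (log2 fold change -0.074, SE 0.25, FDR = 0.877). Osmr, the oncostatin M receptor chain, was next to silent, with 3, 2 and 0 counts in wild-type and 2, 0 and 0 counts in Scd2-m/-m libraries, and was not tested. Osmr, Lifr and Il7r all lie on chromosome 15, Osmr at chr15:6813577-6874969, Lifr at chr15:7090614-7197489 and Il7r at chr15:9505788-9530176, so that the silent gene is the nearest of these to the risen Lifr.

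Il3ra, the specific chain of the IL-3 receptor, fell, and Il12rb2, the specific chain of the IL-12 receptor, rose. Il3ra had 133, 131 and 129 CPM in the wild-type libraries and 119.9, 96.8 and 88.1 CPM in the Scd2-m/-m libraries. The wild-type libraries lay within 4.01 CPM of each other, while the Scd2-m/-m libraries were spread below them (log2 fold change -0.36, SE 0.094, FDR = 0.0197, edgeR quasi-likelihood test), and the call was lost without wild-type replicate 2 and without Scd2-m/-m replicate 2. Csf2rb, a chain it signals with, was also lower (462 ± 36.1 against 393 ± 24.3 CPM, log2 fold change -0.23, FDR = 0.0373). IL-3 shares Csf2rb with granulocyte-macrophage colony-stimulating factor (GM-CSF). Il12rb2 was low, at 4.15, 4.21 and 4.76 CPM in wild type against 6.07, 5.85 and 6.56 CPM in Scd2-m/-m. Its groups were apart (log2 fold change 0.49, SE 0.12, FDR = 0.0119), and the call was lost without wild-type replicate 2. Of Il12rb2, 40.0% of the exonic length overlaps Serbp1 on the opposite strand, an RNA-binding protein gene with 152 ± 6.35 against 152 ± 12.2 CPM and a log2 fold change of -0.0018. Since the use of strand in counting is not given, reads of the 2 genes cannot be told apart there. Il12rb1, the chain that IL-12 shares with IL-23, was below 1.1 CPM in every library, at 0.423, 0.781 and 0.728 CPM in wild-type replicates 1 to 3 and 0.609, 0.836 and 1.05 CPM in those of Scd2-m/-m, with overlapping groups (log2 fold change 0.37, SE 0.33, FDR = 0.485). The IL-17 receptor, which signals without JAKs, showed no call in either chain. Il17ra had 36.9, 33.2 and 38.01 CPM in the wild-type libraries and 32.1, 36.5 and 32.8 CPM in the Scd2-m/-m libraries (log2 fold change -0.094, FDR = 0.432). Il17rc was below 0.52 CPM throughout, with overlapping groups (log2 fold change 0.45, SE 0.38, FDR = 0.468).

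Of the 6 ligands 4 were tested and none was called. At an unadjusted p below 0.05 edgeR gave 1 of the 4, Il10, which DESeq2 also called, while limma-voom called none. Il10, the main anti-inflammatory cytokine of macrophages, had 3.34, 3.73 and 4.82 CPM in wild type against 4.93, 5.23 and 6.07 CPM in Scd2-m/-m. Every Scd2-m/-m library was above every wild-type library, and the log2 fold change of 0.45 (SE 0.15) had an FDR of 0.0599 in the edgeR quasi-likelihood test, just outside the limit. It was called in 5 of 15 alternatives, among them DESeq2 and the fit with the replicate number as a block, although these numbers did not pair the samples. With single libraries left out, Il10 was called only without wild-type replicate 3, and its FDR rose to as much as 0.195. Its receptor chain Il10ra, given above, was lower. Il15 had 22.4, 25.5 and 29.5 CPM in wild-type replicates 1 to 3 and 22.6, 26.6 and 26.9 CPM in those of Scd2-m/-m. The groups overlapped almost completely (log2 fold change -0.024, FDR = 0.906). Osm, which encodes oncostatin M, gave 3.51, 4.45 and 4.76 CPM in the wild-type libraries and 2.88, 4.28 and 4.06 CPM in the Scd2-m/-m libraries and overlapped (log2 fold change -0.18, SE 0.17, FDR = 0.526). Il27, which encodes the p28 chain of IL-27, lay between 1.07 and 1.40 CPM in all 6 libraries (log2 fold change 0.042, FDR = 0.928). Of its exonic length, 10.1% overlaps Apobr on the opposite strand, a gene with 174 ± 23.7 against 149 ± 5.23 CPM. Reads of these 2 genes cannot be told apart there, because the use of strand in counting is not given. Il6 had 0, 0 and 0 counts in wild-type and 4, 3 and 0 counts in Scd2-m/-m libraries, and Lif had 2, 0 and 4 against 2, 0 and 1. With so few counts, neither was tested and a difference was not detectable at this depth. Lif was thus at or near 0 in both genotypes, while the chain that receives it, Lifr, rose. For Il6, quantitative PCR in the study found a higher level in unstimulated Scd2-m/-m macrophages.

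Jak3 alone of the 4 JAKs was called, where 17.5% of all tested genes were called. Jak3, which binds the common gamma chain, had 33.9, 37.6 and 40.5 CPM in wild type against 45.6, 47.3 and 46.3 CPM in Scd2-m/-m. All Scd2-m/-m libraries lay above wild type (log2 fold change 0.31, SE 0.071, FDR = 0.00748, edgeR quasi-likelihood test). Jak1, the most abundant of the 4 per length and a partner of most of these receptors, gave 262, 266 and 279 CPM in wild-type replicates 1 to 3 and 258, 275 and 287 CPM in those of Scd2-m/-m. Its groups overlapped (log2 fold change 0.023, SE 0.061, FDR = 0.846). Tyk2, which binds Ifnar1 and Il10rb, had 121, 129 and 129 CPM in the wild-type libraries and 152, 137 and 130.3 CPM in the Scd2-m/-m libraries. The groups did not overlap, but the difference was not called (log2 fold change 0.15, SE 0.066, FDR = 0.139). Jak2, which binds Ifngr2 and Csf2rb, gave 31.2, 35.4 and 31.3 CPM in wild type against 28.5, 30.8 and 36.1 CPM in Scd2-m/-m with overlap (log2 fold change -0.037, FDR = 0.824).

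Among the 6 STATs of the set Stat2 alone was called. As 17.5% of all tested genes were called, 1 call among 6 does not set the STATs apart. Stat2, which joins IRF9 in a complex that type I interferons activate, had 128, 125 and 133 CPM in wild-type replicates 1 to 3 and 159, 153 and 155 CPM in those of Scd2-m/-m. The lowest Scd2-m/-m library was above the highest wild-type library by 20.2 CPM (log2 fold change 0.27, SE 0.056, FDR = 0.00367, edgeR quasi-likelihood test). Stat2 and both chains of the receptor that activates it thus moved in opposite directions. Stat3 had 171, 175 and 189.9 CPM in the wild-type libraries and 199, 193 and 194 CPM in the Scd2-m/-m libraries. It did not overlap and was not called (log2 fold change 0.13, SE 0.059, FDR = 0.157). Stat6, the factor downstream of Il4ra and the highest STAT per length, had 303, 298 and 298 CPM in wild type against 302, 294 and 293 CPM in Scd2-m/-m (log2 fold change -0.015, SE 0.055, FDR = 0.893). Stat5b had 83.9, 85.1 and 87.4 CPM in wild-type replicates 1 to 3 and 78.9, 79.4 and 78.6 CPM in those of Scd2-m/-m, lower in every Scd2-m/-m library but not called (log2 fold change -0.11, FDR = 0.184). Stat5a gave 39.6, 41.5 and 39.04 CPM in the wild-type libraries and 42.3, 38.7 and 41.2 CPM in the Scd2-m/-m libraries, with overlap (log2 fold change 0.024, FDR = 0.842). Stat5a and Stat5b are closely related paralogs, and their reads may be split between them by the authors' counting, which makes their single values uncertain. Stat4, which follows the IL-12 receptor, lay between 1.13 and 1.84 CPM (log2 fold change -0.15, SE 0.22, FDR = 0.690).

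Of the 8 SOCS family genes 1 was higher and 2 were lower, where 9.65% of all tested genes were higher and 7.84% lower. The 3 that changed were Socs5, Socs6 and Socs7, while the cytokine-induced feedback genes Socs1, Socs2, Socs3 and Cish were not called. Socs6 had 32.6, 33.8 and 39.5 CPM in wild type against 46.6, 56.5 and 59.3 CPM in Scd2-m/-m. Its Scd2-m/-m libraries were all higher, at 153% of the wild-type mean (log2 fold change 0.62, SE 0.10, FDR = 7.99e-04, edgeR quasi-likelihood test). Socs5, which has been studied as an inhibitor of IL-4 and growth factor receptors, had 44.6, 43.2 and 41.9 CPM in wild-type replicates 1 to 3 and 35.2, 34.7 and 30.5 CPM in those of Scd2-m/-m. It was lower without overlap (log2 fold change -0.37, SE 0.070, FDR = 0.00234). Socs7 gave 33.8, 35.97 and 36.3 CPM in the wild-type libraries and 29.6, 28.5 and 27.8 CPM in the Scd2-m/-m libraries and was likewise lower without overlap (log2 fold change -0.30, SE 0.065, FDR = 0.00495). The calls of Socs5, Socs6 and Socs7 held with every library left out. Socs3, the inhibitor of gp130 signaling that STAT3 induces, had 15.6, 15.4 and 16.6 CPM in wild type against 14.4, 15.6 and 16.3 CPM in Scd2-m/-m. Its groups overlapped (log2 fold change -0.037, SE 0.082, FDR = 0.811). Quantitative PCR in the study found Socs3 lower in unstimulated Scd2-m/-m macrophages, and the reason for this difference was not tested. Socs1, an inhibitor of interferon receptors and JAKs, had 2.05, 2.15 and 2.46 CPM in wild-type replicates 1 to 3 and 1.58, 2.01 and 2.03 CPM in those of Scd2-m/-m. Its Scd2-m/-m libraries were all below wild type by a narrow margin and the difference was not called (log2 fold change -0.25, SE 0.18, FDR = 0.402). Socs4 gave 40.5, 38.9 and 39.8 CPM in the wild-type libraries and 36.3, 38.7 and 39.6 CPM in the Scd2-m/-m libraries with overlap (log2 fold change -0.055, FDR = 0.602). The STAT5-induced genes Socs2 and Cish were both below 1 CPM. Socs2 had 0.504, 0.347 and 0.433 CPM in wild type against 0.520, 0.537 and 0.791 CPM in Scd2-m/-m, higher in every Scd2-m/-m library but not called (log2 fold change 0.52, SE 0.34, FDR = 0.329). Cish lay between 0.338 and 0.551 CPM (log2 fold change -0.13, SE 0.35, FDR = 0.846). Pim1, a survival kinase that STAT3 and STAT5 induce, had 63.7, 68.5 and 76.1 CPM in wild-type replicates 1 to 3 and 96.8, 90.96 and 92.5 CPM in those of Scd2-m/-m. All Scd2-m/-m libraries were higher, at 135% of the wild-type mean (log2 fold change 0.43, SE 0.070, FDR = 7.71e-04), a call that also held with every library left out.

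**Figure D4:**
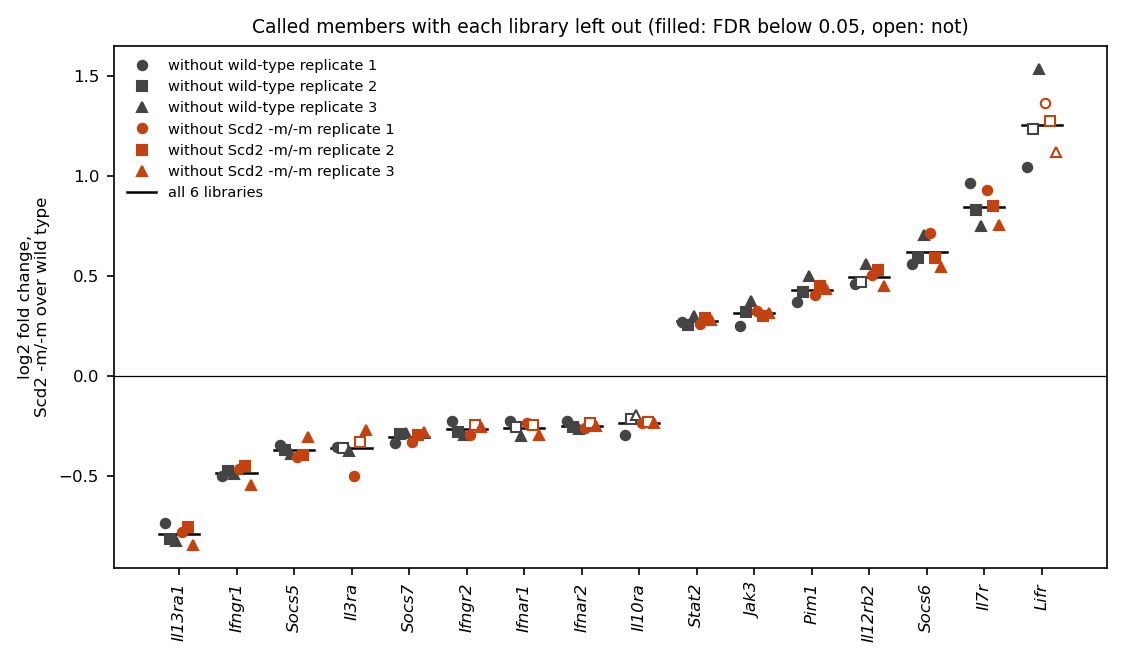
Log2 fold change of the 16 called genes (Scd2-m/-m over wild type, vertical axis) with all 6 libraries (line) and with each library left out in turn (black symbols for wild-type, orange for Scd2-m/-m libraries); filled symbols kept an FDR below 0.05 and open symbols did not. No symbol crosses 0, and the open symbols belong to Il3ra, Ifngr2, Ifnar1, Ifnar2, Il10ra, Il12rb2 and Lifr, most of them without wild-type replicate 2 or Scd2-m/-m replicate 2.

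Per length, the 48 genes spanned the range from silent to abundant in these unstimulated cells. In wild type, Ifngr1 was the highest at 385 ± 11.02 TPM (mean ± SD, n = 3), followed by Il10ra at 231 ± 19.9 TPM and then by Ifngr2 (194 ± 7.36) and Stat6 (189 ± 0.481), which did not differ beyond their spread. Below them came Il2rg (153 ± 10.3) and Il3ra (122 ± 1.28), then Ifnar2 (109.7 ± 1.94), Il10rb (109.5 ± 1.35) and Jak1 (103 ± 4.37), of which Ifnar2 and Il10rb did not differ beyond their spread. The order in Scd2-m/-m again began with Ifngr1 (279.6 ± 20.4 TPM) and Il10ra (199.6 ± 1.97), but there Ifngr2 (164 ± 3.88) came after Stat6 (190.3 ± 1.72) and Il2rg (186 ± 20.3). Of the called members, Lifr moved from rank 34 to rank 28 of the 48 and Il13ra1 from rank 26 to rank 34. The lowest tested members were Socs2 (0.124 ± 0.0215 TPM in wild type) and Cish (0.209 ± 0.0301 TPM). Among the JAKs the order in wild type was Jak1, Tyk2 (50.97 ± 2.48), Jak3 (19.4 ± 1.91) and Jak2 (18.02 ± 1.46), and the last 2 were within their spread. In Scd2-m/-m the TPM of Jak3 (24.5 ± 0.723) was above that of Jak2 (17.9 ± 2.30) beyond their spread.

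**Figure D5:**
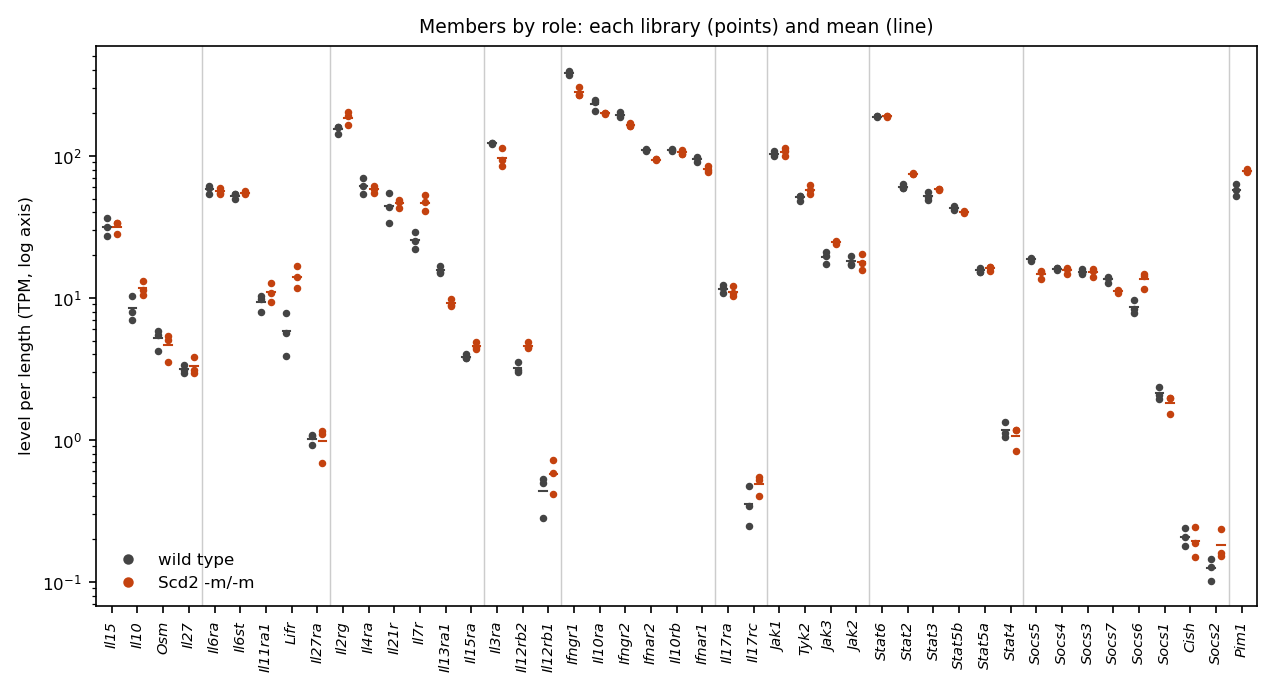
Level per exonic length (TPM, log axis) of the 45 tested genes in every library, grouped by role in the order ligands, gp130 family, common gamma chain and IL-4/IL-13 receptors, IL-3 and IL-12 receptors, interferon and IL-10 receptors, IL-17 receptor, JAKs, STATs, SOCS family and Pim1, with black points for wild type, orange points for Scd2-m/-m and a line at each mean. The interferon and IL-10 receptor chains are the highest group, between 94.5 and 385 TPM in wild type, and Socs2, Cish, Il17rc and Il12rb1 lie below 1 TPM in every library.

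Chains that act as a pair were set beside each other in TPM, as a description without a test. The ratio of Ifngr1 to Ifngr2 was 1.99 ± 0.12 in wild type against 1.70 ± 0.14 in Scd2-m/-m (SD, n = 3), with overlap between the libraries. The ratio of Ifnar1 to Ifnar2 was 0.861 ± 0.024 and 0.855 ± 0.039, nearly the same in both genotypes although both chains were lower. That of Il7r to Il2rg was 0.167 ± 0.024 and 0.255 ± 0.048, and that of Jak3 to Jak1 0.187 ± 0.011 and 0.230 ± 0.011. The ratios of Il7r to Il2rg did not overlap between the genotypes, nor did those of Jak3 to Jak1, of Lifr to Il6st, of Il6ra to Il6st or of Il4ra to Il13ra1, while those of Ifnar1 to Ifnar2 did.

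Other genes of the same pathways were taken from lists of receptor chains, ligands and regulators outside the 48. The background for their counts was 9.65% of all tested genes higher and 7.84% lower. Of 12 other tested receptor chains, 5 were lower and the other 7 were not called, and their median log2 fold change was -0.19. Without wild-type replicate 2 or without Scd2-m/-m replicate 2 this count was 3. Besides Crlf2 and Csf2rb these were Csf1r, the receptor of macrophage colony-stimulating factor (7031 ± 285 against 5414 ± 68.7 CPM, log2 fold change -0.38, FDR = 0.00158, edgeR quasi-likelihood test), Csf3r, the granulocyte colony-stimulating factor receptor (-0.28, FDR = 0.0105), and Crlf3. Csf1r is also among the macrophage markers and Csf3r among the neutrophil markers. Of 4 other tested ligands 1 was lower. This was Ebi3, whose product pairs with that of Il27 in IL-27 (98.2 ± 14.4 against 71.7 ± 9.97 CPM, log2 fold change -0.45, FDR = 0.0391), and the call was lost when any one of 4 libraries was left out. Of 35 other tested regulators of the pathway, 4 were higher and 8 lower. The adaptor gene Sh2b2 (-0.73 on the log2 scale, FDR = 4.52e-05) and the insulin receptor substrate gene Irs2 (-0.68, FDR = 4.64e-05) fell, and the ubiquitin ligase gene Cblb rose (0.56, FDR = 4.52e-05). Pim1 was the member of its kinase family that rose: Pim2 had 10.96 ± 1.99 against 5.45 ± 0.398 CPM (log2 fold change -1.01, FDR = 1.34e-04) and Pim3 14.7 ± 0.306 against 10.8 ± 1.35 CPM (-0.45, FDR = 0.00555), both lower, and these 2 were named after their values were seen.

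Genes that the cytokines of these receptors are known to induce moved in both directions in all 4 lists. Over all tested genes 9.65% were called higher and 7.84% lower, so calls in both directions are not particular to these lists. Of 30 IL-10 and STAT3 response genes, 5 were higher and 7 lower, and the median was -0.037 on the log2 scale. They included the transcription factor gene Cebpd, which fell (116 ± 2.37 against 75.1 ± 2.84 CPM, log2 fold change -0.62, FDR = 6.68e-06, edgeR quasi-likelihood test), and Lcn2 (1.22) and S100a8 (0.97), which rose and are also neutrophil markers. Of 24 tested IL-4 and STAT6 response genes, 6 were higher and 3 lower, with a median of 0.15. Chil3, which encodes a chitinase-like protein of alternatively activated macrophages and monocytes, rose from 1.46 ± 0.249 to 5.08 ± 0.400 CPM (log2 fold change 1.79, FDR = 6.68e-06), Egr2 also rose (0.86, FDR = 5.50e-05), and Ptgs1 fell (-0.78, FDR = 4.10e-05). Of 27 tested interferon gamma response genes, 5 were higher and 4 lower, with a median of 0.047, and without wild-type replicate 2 or without either of Scd2-m/-m replicates 2 and 3 the count of calls was 5. Nlrc5 (0.39) and Tap1 (0.29), genes of antigen presentation, rose, and the chemokine gene Cxcl9 fell (-1.28, FDR = 0.00734) at a level below 2 CPM. Of 22 tested IL-3, GM-CSF and STAT5 response genes, 6 were higher and 5 lower, with a median of 0.067, and without wild-type replicate 2 or without either of Scd2-m/-m replicates 2 and 3 the count was 6 or 7. Besides Pim1, a member of both this list and the 48, Bhlhe40 rose (4.89 ± 0.646 to 8.74 ± 0.932 CPM, log2 fold change 0.84, FDR = 4.79e-04), and Trib1 fell (45.8 ± 2.02 to 20.4 ± 0.544 CPM, log2 fold change -1.17, FDR = 8.74e-08).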

How the data were processed

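RNA of 3 wild-type and 3 Scd2-m/-m BMDM samples was poly(A)-selected and sequenced on an Illumina NovaSeq. The authors aligned reads with STAR to Ensembl release 76 (GRCm38) and deposited raw gene counts as whole numbers. How reads were counted, and whether by strand, is not stated in the sources used here. Even values made up 60.9% to 64.9% of the counts from 1 to 20 in each library, and the library totals exceed the average read number of the study, so a count may stand for a mate rather than a fragment. A second deposited table, of the authors' own comparison (log2 fold changes, p-values and log2 CPM), was not used. Of 40757 entries 276 repeats were removed. Coordinates and exonic lengths came from the GENCODE annotation of GRCm38 (99.7% of genes).

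Counts were tested with edgeR 4.0.16 (filterByExpr, TMM factors of 0.979 to 1.02, glmQLFit with robust estimation, glmQLFTest) in R 4.3.3 over 14778 genes, with Benjamini-Hochberg adjustment (FDR below 0.05). The standard error is the log2 fold change divided by the square root of the F statistic. Replicates of a genotype differed by more than sampling noise. The pipeline was tested on simulated data. Alternatives were RLE and upper-quartile factors, limma-voom (limma 3.58.1) with and without quality weights, DESeq2 1.42.0, other filters, halved counts, other thresholds, the replicate number as a block, and leaving out each library. The count for the interferon and IL-10 receptor chains and the background above 10 CPM were added after seeing the data.

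The 48 members and the lists were chosen with earlier results of these data known. The rule named all members, Scd2, the called genes (3 at most) of smallest p per pathway list (other receptor chains, other ligands, other regulators and 4 response lists), and summed levels and up to 3 called genes per marker list (macrophage, monocyte and progenitor, neutrophil, dendritic, mast cell and basophil, B, T, NK and innate lymphoid, stromal, and cell division). Genes chosen after their values were seen were Csf2rb, Crlf3, Pim2, Pim3, Serbp1, Apobr, the Gm genes that overlap members, Gart, Xist and the Y-linked genes. The other genes named around the chromosome 16 cluster were also chosen in this way. The symbol Gbp5 was not found.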

Additional observations from a re-analysis of the deposited data

How the results depend on the processing

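Over all alternatives, 633 of 675 comparisons of a single member kept their direction and their side of the FDR limit, 15 lost a call, 12 gained one and 15 turned direction, all 15 in members without a call. Under RLE factors, upper-quartile factors, limma-voom, a filter of 10 counts and halved counts 16 members were called, as in the report. No filter gave 17, DESeq2 18 and limma-voom with quality weights 19. An FDR below 0.01 left 12 and one below 0.10 gave 18. With the absolute log2 fold change also above 2, 0 members were called in either direction or in all (98 genes overall). Leaving out each library gave 11 to 17 members, 5 to 8 higher and 4 to 9 lower. Over all genes the count was 2585, with 4507 under quality weights, 1331 at an FDR below 0.01 and 1440 to 2567 without each library.

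Leaving out each library gave 3 to 5 calls among other receptor chains, 0 to 1 among other ligands, 5 to 10 among interferon gamma response genes, 6 to 11 among IL-3, GM-CSF and STAT5 response genes, and 1 to 5 among the interferon and IL-10 receptor chains. Quality weights gave 2 other ligands and 21 other regulators.

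Directions turned near 0. Under quality weights the log2 fold change was 0.012 for Il15, -0.0038 for Il27, 0.015 for Il17ra and -0.039 for Stat5a. With each library left out it ran from -0.12 to 0.084 for Il15, from -0.089 to 0.12 for Il27, from -0.21 to 0.13 for Il27ra, from -0.11 to 0.23 for Il21r, from -0.014 to 0.062 for Jak1, from -0.14 to 0.037 for Jak2, from -0.0042 to 0.061 for Stat5a, from -0.32 to 0.024 for Cish and from -0.079 to 0.012 for Socs3. The cause was not tested.

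The replicate numbers did not pair the samples (correlations of same-numbered deviations 0.053, -0.020 and 0.040). With the replicate block 18 members and 2974 genes were called, and not every sample correlated best with its own number.

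Of the 7 members below 1 CPM in wild type, 3 were not tested, and the differences of the other 4 had standard errors of up to 0.38 on the log2 scale, which limits the changes detectable there.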

Other observations

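Markers of other cell types were summed as a check on which cells the libraries held. The background for counts of called markers was 9.65% of all tested genes higher and 7.84% lower. Neutrophil markers were higher in Scd2-m/-m macrophages in 7 of 11 tested markers and lower in 1, yet their summed level was 186 to 194 CPM in wild type and 167 to 200.1 CPM in Scd2-m/-m, since Csf3r, which was lower, made up most of it. S100a9 rose from 2.79 ± 0.359 to 8.74 ± 1.53 CPM (log2 fold change 1.65, SE 0.15, FDR = 6.68e-06, edgeR quasi-likelihood test) and Ngp from 2.51 ± 0.789 to 8.42 ± 1.66 CPM (log2 fold change 1.74, FDR = 2.05e-04). Among monocyte and progenitor markers, Plac8 rose from 0.334 ± 0.132 to 3.42 ± 0.581 CPM (log2 fold change 3.35, FDR = 1.94e-06) and Ly6a from 7.73 ± 2.70 to 43.8 ± 2.42 CPM (log2 fold change 2.498, FDR = 0.00129). Of the macrophage markers, Aif1 fell from 76.3 ± 8.27 to 51.1 ± 4.73 CPM (log2 fold change -0.58, FDR = 4.77e-04) and the complement gene C1qa from 968 ± 73.8 to 701 ± 35.4 CPM (log2 fold change -0.47, FDR = 4.95e-04). Lyz2 fell from 22751 ± 584 to 9029 ± 357 CPM.

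Of 5 tested B cell markers 3 were higher, with sums of 158 to 231 CPM against 214 to 248 CPM. Of 10 tested dendritic cell markers 2 were higher, with sums of 312 to 335 CPM against 298 to 340.3 CPM. The share over all tested genes was 9.65% higher and 17.5% called in either direction. The other lists had no call in edgeR's test. T cell markers summed to 116 to 162 CPM in wild type and 144 to 165 CPM in Scd2-m/-m, with Trbc1 and Trbc2 at 0. NK and innate lymphoid markers summed to 15.3 to 19.6 CPM and 14.8 to 19.9 CPM, with Ncr1, Prf1 and Gzma at 0. Mast cell and basophil markers summed to 0.867 to 1.07 CPM and 1.61 to 2.24 CPM, with Mcpt4 and Tpsb2 at 0, and stromal markers to 5.35 to 7.88 CPM and 6.52 to 6.78 CPM. Il7r, which lymphoid cells also express, was higher in the libraries in which 3 of 5 tested B cell markers were higher, and the summed B cell, T cell and NK levels of the genotypes overlapped. The part of lymphoid cells in its rise was not tested.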
